A study of Mus musculus with 2 samples.

Results

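Cyclin-dependent kinase (CDK) inhibitors and the pocket proteins were followed in mouse glioblastoma stem cells in which Stat5b had been lowered. The set held 10 genes, taken by gene symbol with earlier results of these data known, of 26878 named genes on the array. They were the CIP/KIP inhibitors Cdkn1a, Cdkn1b and Cdkn1c, the INK4 inhibitors Cdkn2a, Cdkn2b, Cdkn2c and Cdkn2d, and the pocket proteins Rb1, Rbl1 and Rbl2. The array carried 19 probes for them, all of which were examined. The cells were a line grown as neurospheres with EGF and bFGF, set up from mouse glioblastomas that an SB transposon had induced. Per the labels, 1 culture carried a lentiviral non-target short hairpin RNA (control) and 1 carried a lentiviral hairpin against Stat5b, the transcription factor under study, and the knockdown was stable. The labels give 1 cell line, and do not give its other alleles, the number of clones or the number of hairpin sequences. Each culture was read on 1 single-colour array, so there were no replicates, and an effect of the hairpin and a difference between single cultures cannot be told apart.

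CDK inhibitors hold back the step from G1 into DNA synthesis. INK4 proteins bind CDK4 and CDK6 and keep D-type cyclins from activating them, whereas CIP/KIP proteins bind whole cyclin-CDK complexes, those of CDK2 above all. Pocket proteins bind E2F transcription factors and silence their target genes until CDKs phosphorylate them, and the Cdkn2a and Cdkn2b locus and Rb1 are among the genes often lost in human glioblastoma.

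The sequences behind the largest differences are shown first, the stretch shared by the probes of the gene with the largest difference, then the starts of the 3 Cdkn1a probes, which did not all go the same way. All 60-base probe sequences came from the authors' deposited table, and 30 bases of each are printed, 5′ to 3′. Both Cdkn2c probes read nearly the same piece of the transcript, since 40 of their 60 bases overlap, and the first 30 of those shared bases are given. No capitals are used here because no part is marked.
Cdkn2c shared stretch: ccgttagttggttggctgtccgtttcacta
Cdkn1a probe A_51_P363947: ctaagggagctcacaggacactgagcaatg
Cdkn1a probe A_55_P1976204: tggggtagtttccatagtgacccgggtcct
Cdkn1a probe A_55_P1986282: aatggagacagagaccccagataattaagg
Of the 19 probes, 0 shared a run of 20 or more bases with a probe of another gene on either strand.

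Values are processed signals of the scanner software, a brightness per spot, and the difference is log2, knockdown minus control, after each array was set to its 75th percentile (493.3 in the control, 493.7 in the knockdown). The error printed as ± is that software's own for the spots, not a measured spread between cultures. For a mean over probes or a gap between genes, these errors were combined as if the probes were independent. A difference of 1 on the log2 scale, 2-fold, was the size at which a gene was counted. The log2 difference had an SD of 0.0558 among repeated spots of a probe, and of 0.310 among a gene's probes. Of the 10 genes, 7 differed by more than the latter, which is a spread of single probes and not of means over probes. The smallest of these was Rbl1 at -0.37, and 36.5% of all measured genes lay at least as far from 0. At the next smaller, Cdkn2a at 0.26, that share was 49.8%.

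None of the 10 genes reached 2-fold as the mean over its probes. Counted were 0 of 10 higher and 0 lower, beside 3.67% (higher) and 2.41% (lower) of 16354 measured genes. Of 18 member probes well above background on both arrays, 1 was at least 2-fold higher and 0 were lower, beside 3.16% and 2.62% of 32047 such probes. The 10 genes ran from -0.56 for Cdkn1a to 0.92 for Cdkn2c, with a median of 0.14 beside 0.01 over all measured genes. Above 0 were 6 of the 10 genes, beside 51.2% of all measured genes. The median size of the difference, whatever its sign, was 0.41, beside 0.26 over all measured genes. The 7 genes with more than 1 measured probe had all their measured probes on one side of 0, as had 68.0% of all genes with several measured probes. In bulk RNA of this kind, fewer cells with a transcript and less of it per cell cannot be told apart.

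**Figure D1:**
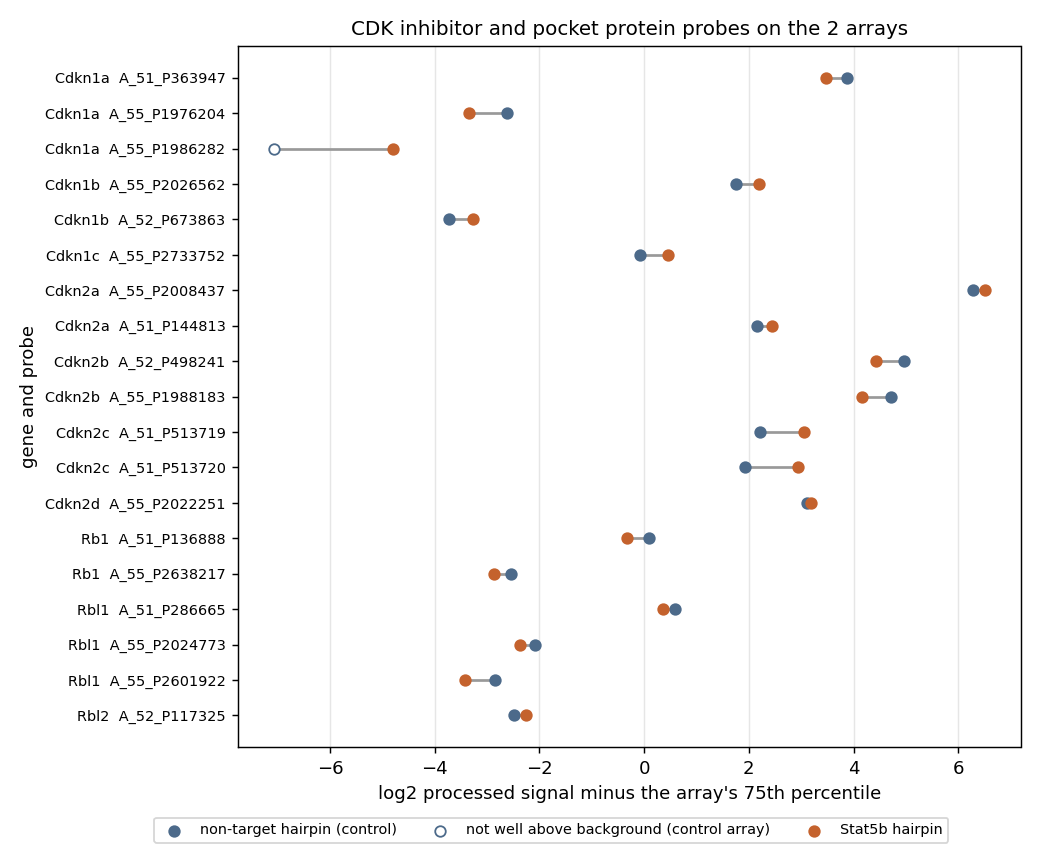
Log2 processed signal of each of the 19 probes minus the array's 75th percentile (x axis), by gene and probe (y axis), on the control array (blue) and the knockdown array (orange); the open circle is the Cdkn1a probe not well above background on the control array. Cdkn2c lies to the right on the knockdown array with both probes, and Cdkn2b lies to the left with both. Distances between probes of different rows are not comparable as expression levels.

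Among INK4 inhibitors, Cdkn2c stood highest and Cdkn2b lowest. Cdkn2c encodes p18INK4c, an inhibitor of CDK4 and CDK6. Its probe A_51_P513720 read 1877 in the control and 3765 in the knockdown, a difference of 1.003 ± 0.20. The other, A_51_P513719, read 2274 and 4081.5, a difference of 0.84 ± 0.20. Both were higher on the knockdown array, and because they overlap in sequence they are not separate readings of the transcript. The mean was 0.92 ± 0.14, or 1.90-fold, above 95.5% of measured genes and the largest of the 10. Its error takes the overlapping probes as independent and may be too small. The probe at 2-fold was just under it with median scaling (0.99) and with normexp, another background correction (0.92).

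Cdkn2b, which encodes p15INK4b, an inhibitor known as a target of TGF-beta signalling, was lower on the knockdown array with both probes. Probe A_52_P498241 read 15311 in the control and 10565 in the knockdown, and probe A_55_P1988183 read 12989.8 and 8781. Their differences of -0.54 ± 0.20 and -0.57 ± 0.20 lay close together, and these probes share no run of 20 bases. The gene's mean was -0.55 ± 0.14, or 1.47-fold lower, with 9.30% of measured genes below it. Between Cdkn2c and Cdkn2b, which act on the same kinases, the differences were 1.47 ± 0.20 apart.

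Cdkn2a, the neighbour of Cdkn2b, encodes p16INK4a and, from another first exon and reading frame, the p53 activator p19ARF. Probe A_55_P2008437 read 38246 in the control and 45000.1 in the knockdown, a difference of 0.23 ± 0.20. Probe A_51_P144813 read 2194 and 2683, a difference of 0.29 ± 0.20. Both were slightly higher on the knockdown array, for a mean of 0.26 ± 0.14 (1.20-fold), and 49.8% of all measured genes lay at least as far from 0. The files name transcript variant 1 for both probes and do not tell which protein's transcript gave the signal. The difference of Cdkn2a was 0.81 ± 0.20 above that of Cdkn2b. Cdkn2d, which encodes p19INK4d, read 4269.7 in the control and 4472 in the knockdown. At 0.07 ± 0.20 it lay within the software's own error of 0, the only one of the 10 to do so, and its single probe sat among the last 64 of 384 rows of spots, a region that 1 alternative left out.

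**Figure D2:**
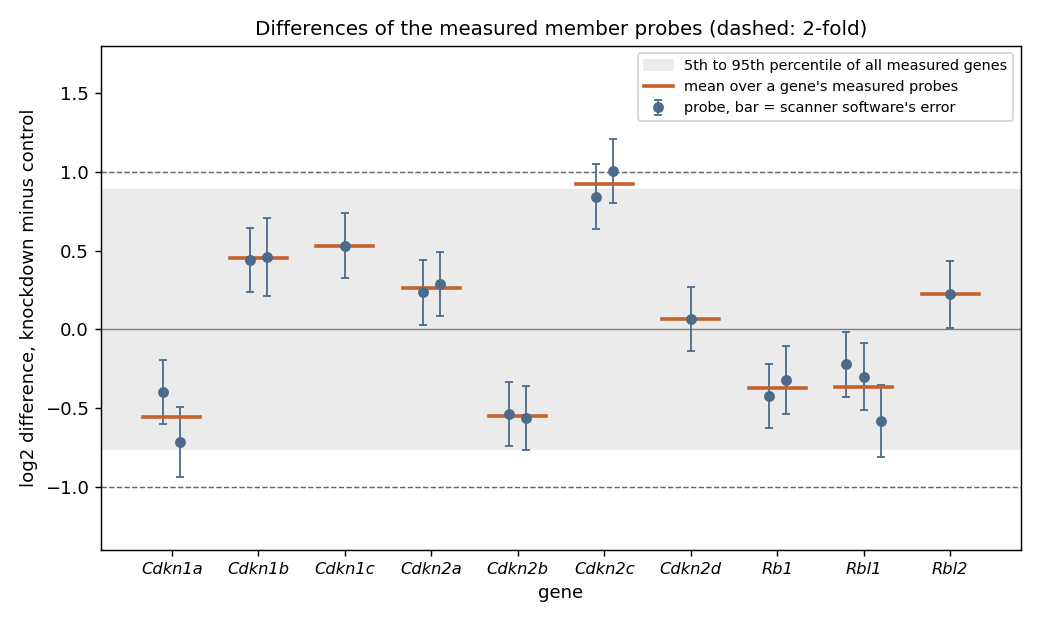
Log2 difference, knockdown minus control (y axis), of each measured probe (blue, with the scanner software's error) and of each gene as the mean over its probes (orange), for the 10 genes (x axis); the grey band spans the 5th to the 95th percentile of all measured genes, -0.76 to 0.89, and dashed lines mark 2-fold. Cdkn2c at 0.92 is the only gene whose mean lies outside the band.

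Of the CIP/KIP inhibitors, Cdkn1b and Cdkn1c were higher on the knockdown array and Cdkn1a was lower by 2 of its 3 probes. Cdkn1b encodes p27KIP1, a brake on CDK2 that is abundant in resting cells. Its probe A_55_P2026562 read 1658 in the control and 2254 in the knockdown (0.44 ± 0.20), and the dim probe A_52_P673863 read 37.5 and 51.5 (0.46 ± 0.25). The mean was 0.45 ± 0.16 or 1.37-fold, above 84.2% of measured genes. With normexp the probes lay further apart, at 0.42 for the bright and 0.16 for the dim one, with a mean of 0.29. Cdkn1c encodes p57KIP2, an imprinted inhibitor. Its single probe, A_55_P2733752, read 466.6 in the control and 675.1 in the knockdown, a difference of 0.53 ± 0.20 or 1.45-fold.

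Cdkn1a encodes p21CIP1, the best known p53 target among the inhibitors. Its bright probe A_51_P363947 read 7259.99 in the control and 5517 in the knockdown (-0.40 ± 0.20). A dimmer probe, A_55_P1976204, annotated to an Ensembl transcript of the gene, read 80.0 and 48.7 (-0.72 ± 0.22). Both were lower on the knockdown array, with a mean of -0.56 ± 0.15 or 1.47-fold lower. The third probe went the other way. A_55_P1986282, annotated to transcript variant 2, was not well above background on the control array, at a signal of 3.66, and read 17.8 on the knockdown array. Its difference was 2.28 ± 1.10, with a far larger error than the other probes of the gene. Set against the lowest signal well above background of any control-array probe, it was at least 1.47-fold higher, the software's error aside. With that probe counted in, the mean over the gene's probes turned to 0.39, so the direction of Cdkn1a as a mean over probes rests on leaving out a dim probe. The bright and the third probe lay in the last 64 rows, the second did not. Cdkn1b stood 1.01 ± 0.22 above Cdkn1a.

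Among pocket proteins, Rb1 and Rbl1 were lower on the knockdown array and Rbl2 was slightly higher. Rb1 encodes the retinoblastoma protein, the main partner of activator E2Fs. Its probe A_51_P136888 read 525.1 in the control and 392.0 in the knockdown (-0.42 ± 0.20), and A_55_P2638217 read 84.8 and 67.8 (-0.32 ± 0.22). Both probes were lower, for a mean of -0.37 ± 0.15 or 1.30-fold lower. Rbl1 encodes p107, which binds E2F4 and E2F5 and is itself an E2F target. Its 3 probes read 737.7, 116.7 and 68.5 in the control and 632.4, 94.9 and 45.8 in the knockdown. All 3 were lower there, at -0.22, -0.30 and -0.58, the dimmest by most. The mean was -0.37 ± 0.12, or 1.29-fold lower, and the brightest probe alone gave -0.22. Rbl2 encodes p130, the pocket protein typical of resting cells. Its single probe, A_52_P117325, read 88.6 in the control and 103.4 in the knockdown, a difference of 0.22 ± 0.21 that barely passed the software's error. Rbl2 stood 0.59 ± 0.24 above Rbl1. Normexp gave smaller differences, -0.21 for Rb1, -0.19 for Rbl1 and 0.13 for Rbl2.

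The order of the 10 differences, from low to high, was Cdkn1a (-0.56), Cdkn2b (-0.55), Rb1 (-0.37), Rbl1 (-0.37), Cdkn2d (0.07), Rbl2 (0.22), Cdkn2a (0.26), Cdkn1b (0.45), Cdkn1c (0.53) and Cdkn2c (0.92). The place of Cdkn1a is not settled, since its mean was -0.40 by the brightest probe, above Cdkn2b, and 0.39 without the filter on dim probes, between Cdkn2a and Cdkn1b. The first 4 lay within 0.310 (the SD over probes of 1 gene) of their neighbours in this order, and so did each step from Cdkn2d to Cdkn1c. The steps from Rbl1 to Cdkn2d and from Cdkn1c to Cdkn2c were wider. Above 0 were 2 of 3 CIP/KIP inhibitors, or 3 of 3 without the filter on dim probes, 3 of 4 INK4 inhibitors and 1 of 3 pocket proteins. The 7 inhibitors had a median of 0.26 and the 3 pocket proteins one of -0.37.

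Promoter windows were available from RefSeq (build GRCm38.p6) for 8 of the 10 genes, in 11 windows reaching from 250 bases before to 50 bases after a transcript start. Rb1 and Cdkn1c were the others. The 250 bases before the start are printed for 4 genes, 5′ to 3′ on the gene's strand: Cdkn2c, highest of the 10, Cdkn2b and Cdkn1a, the lowest 2 as reported, and Rbl1, the window with an E2F motif. Capitals mark matches to the motifs searched on both strands: a STAT motif (TTCNNNGAA), an E2F motif (TTTCGCGC or TTTGGCGC), the CHR element bound by MuvB complexes (TTTGAA) and the p53 half-site. No match overlapped another motif's match.
Cdkn2c, chr4:109666757-109667006, minus strand, more upstream of 2 starts: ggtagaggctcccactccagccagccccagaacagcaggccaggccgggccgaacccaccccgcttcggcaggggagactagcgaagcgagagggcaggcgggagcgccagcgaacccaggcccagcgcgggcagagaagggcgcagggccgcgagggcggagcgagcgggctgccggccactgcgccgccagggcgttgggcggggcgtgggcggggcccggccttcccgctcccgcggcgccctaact
Cdkn2b, chr4:89311033-89311282, minus strand: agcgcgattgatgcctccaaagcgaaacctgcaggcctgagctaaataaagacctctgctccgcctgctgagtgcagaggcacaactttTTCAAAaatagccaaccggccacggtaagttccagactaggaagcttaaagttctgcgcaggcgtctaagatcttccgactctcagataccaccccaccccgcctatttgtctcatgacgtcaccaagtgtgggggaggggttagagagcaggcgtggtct
Cdkn1a, chr17:29090729-29090978, plus strand, more upstream of 2 starts: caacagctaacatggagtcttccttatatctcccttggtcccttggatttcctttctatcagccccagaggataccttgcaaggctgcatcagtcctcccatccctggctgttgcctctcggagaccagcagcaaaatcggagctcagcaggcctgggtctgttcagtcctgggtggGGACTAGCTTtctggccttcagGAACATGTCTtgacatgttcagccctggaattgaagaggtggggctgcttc
Rbl1, chr2:157204535-157204784, minus strand: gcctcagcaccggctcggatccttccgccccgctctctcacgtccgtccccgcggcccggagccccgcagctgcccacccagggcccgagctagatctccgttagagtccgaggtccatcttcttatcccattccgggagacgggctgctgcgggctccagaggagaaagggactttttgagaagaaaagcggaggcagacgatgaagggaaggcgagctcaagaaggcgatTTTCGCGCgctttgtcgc
The STAT motif was in 0 of the 11 windows, beside 8.30% of all 32851 windows, which says only that these letters are not there. The E2F motif was in 1, that of Rbl1, from 18 to 11 bases before the start, beside 0.813% of all windows. The CHR element was in those of Cdkn2b and Rbl2, beside 17.9%. A p53 half-site was in those of Cdkn1a and Cdkn2d, beside 8.36%, and Cdkn1a held 2 of them. A match is a description of letters and not a bound site.

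Other genes that act on these inhibitors or answer to them were taken from 10 lists. Where fewer than 4 genes of a list reached 2-fold, the largest differences up to 4 are named. Over all measured genes the median was 0.01.

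The G1 cyclins, their kinases and the activators of these kinases were mixed, with 4 of 11 measured genes above 0. Their median was -0.04, and 1 gene was at least 2-fold lower. That was Ccne1, cyclin E1, the partner of CDK2, at -1.75 ± 0.20. Cdk6, a kinase that p18INK4c binds, was at 0.999 ± 0.12 with 3 probes between 0.94 and 1.05. This was just short of the count, and 3 alternatives (brightest probe, median over probes, the authors' table) put it just past it. The CDK-activating phosphatase Cdc25a was at -0.90 ± 0.12 and the CDK-activating kinase subunit Mnat1 at -0.22 ± 0.20, or 0.12 without the filter on dim probes. Ccne2, the other E cyclin, was well above background in the control alone, at 74.9, and read 2.95 in the knockdown. It was therefore not among the measured genes counted here.

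The E2F and DP families, which include the factors that pocket proteins bind, were lower on the knockdown array in 9 of 10 genes. Of these, 3 were at least 2-fold lower, and the list's median was -0.82. Tfdp1, the DNA-binding partner DP1, was at -1.47 ± 0.14 and E2f2 at -1.46 ± 0.14. E2f5, a partner of Rbl1 and Rbl2, was at -1.17 ± 0.21, or -0.76 with normexp, and E2f4, another such partner, at -0.86 ± 0.20 from a probe in the last 64 rows. The list's median was -0.54 with normexp. The MuvB core joins Rbl1 or Rbl2 to silence cell cycle genes, and Mybl2 or Foxm1 to activate them. Of its measured genes and partners, 5 of 7 were below 0 (median -0.24) and 1 was at least 2-fold lower. That was Mybl2, at -1.73 ± 0.20, from a probe in the last 64 rows. Foxm1 was at -0.55 ± 0.14, Lin54 at -0.43 ± 0.14 and Lin9 at -0.24 ± 0.10, which was -0.09 with normexp. Lin54 was at -0.93 and Foxm1 at -0.32 without the filter on dim probes.

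E2F target genes of S phase lay below 0 in 17 of 18 cases, with a median of -0.41 and 1 gene at least 2-fold lower, beside -0.37 for Rbl1, a gene of the same kind that was not in this list. Ccna2, cyclin A2, was at -1.16 ± 0.14, Cdc45, a helicase component, at -0.86 ± 0.14, and Rrm2 and Rrm1, which make deoxyribonucleotides, at -0.81 ± 0.20 and -0.64 ± 0.20. Genes of p27 and p21 turnover were below 0 in 9 of 12 cases (median -0.29). Skp2, the ubiquitin ligase subunit that sends p27KIP1 to the proteasome, was the 1 at least 2-fold lower (-1.28 ± 0.20). With a dim second probe counted in, Skp2 was at -0.58. The RNA of Cdkn1b was at 0.45, and p27KIP1 protein was not measured on these arrays. Cdc20 was at -0.73 ± 0.14, the p27 kinase Uhmk1 at -0.66 ± 0.15 and Dtl, which directs p21 breakdown, at -0.57 ± 0.13. Dtl was at -0.28 with normexp and -0.23 without the filter on dim probes.

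Polycomb genes and demethylases that act at the Ink4 locus were balanced, with 7 of 13 above 0 (median 0.04). Ring1 was at 0.56 ± 0.20, Cbx8 at 0.55 ± 0.14 and the methyltransferase Ezh2 at -0.49 ± 0.09. Bmi1, the classic repressor of Cdkn2a, was at 0.04 ± 0.15 and was picked out after its value was seen.

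Transcription factors acting on inhibitor genes went both ways (9 of 19 above 0, median -0.07), with 2 at least 2-fold lower. The helix-loop-helix antagonists Id2 and Id3 were at -1.96 ± 0.15 and -1.06 ± 0.21, the latter -0.93 with normexp. Foxo1, a factor that activates Cdkn1b, was at 0.98 ± 0.14, or 1.07 without the last 64 rows, and Klf4 at 0.93 ± 0.20.

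The p53 targets apart from Cdkn1a had a median of 0.43, with 14 of 21 above 0, 3 at least 2-fold higher and 1 lower. Cdkn1a itself was at -0.56, and at 0.39 without the filter on dim probes, where the list's median was still 0.43. Ddit4l was at 1.99 ± 0.21, the growth-arrest genes Sesn1 and Btg2 at 1.28 ± 0.20 and 1.08 ± 0.14, and the kinase Plk3 at -1.02 ± 0.20. Btg2 was at 0.84 by its brightest probe and Plk3 at -0.96 with normexp. The list's median was 0.13 with normexp and 0.057 without the last 64 rows. The chromatin partners of pocket proteins were below 0 in 8 of 10 cases, with a median of -0.17 and 0 at 2-fold. The demethylase Kdm5a was at -0.66 ± 0.14 (0.17 without the filter on dim probes), Rbbp8 at -0.38 ± 0.16 (-0.22 with normexp), Hdac1 at 0.28 ± 0.12 and Sin3a at -0.27 ± 0.20. Other genes with Cdkn in the name were the phosphatase Cdkn3 (-0.50 ± 0.12), Cdkn2aip (-0.45 ± 0.20) and Cdkn2aipnl (0.12 ± 0.14, or 0.26 by the brightest probe).

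**Figure D3:**
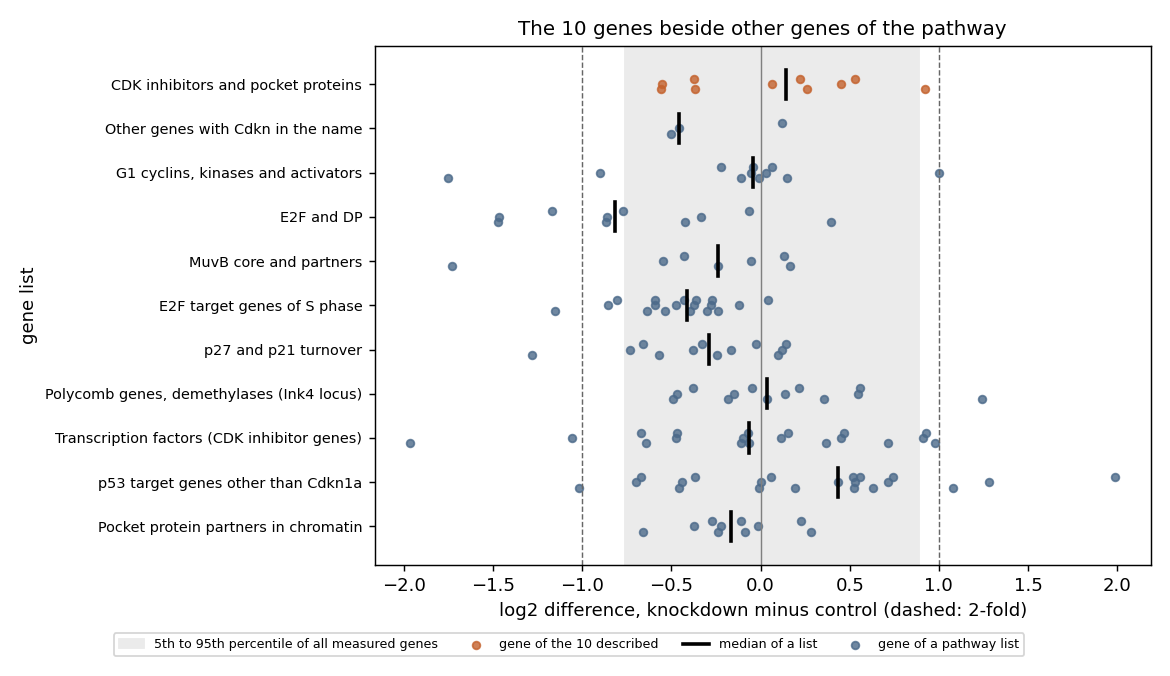
Log2 difference, knockdown minus control (x axis), of the 10 described genes (orange) and of the genes of each pathway list (blue), 1 row per list (y axis), with the list's median as a black bar, the 5th to 95th percentile of all measured genes in grey and 2-fold dashed. The E2F and DP list has the lowest median, -0.82, and the 10 genes straddle 0.

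A pattern over 2 arrays is a single difference, so likeness to a member can only mean a similar difference. Of pathway-list genes with at least 2 measured probes, the 6 nearest to Cdkn1a (-0.56) were Foxm1 (-0.55), Dtl (-0.57), Tyms (-0.54), Pola1 (-0.59), Cdkn3 (-0.50) and Ezh2 (-0.49). This nearness was lost without the filter on dim probes, where Cdkn1a was at 0.39 and these 6 genes lay between -0.59 (Pola1) and -0.23 (Dtl). The genes next to the members in RefSeq order were looked at as well. The 19 distinct measured neighbours had a median of -0.06. Of them, 1 was at least 2-fold higher and 0 were lower, beside 3.67% and 2.41% of all measured genes. It was Slc22a18 (1.27 ± 0.16), which adjoins Cdkn1c in an imprinted cluster, while Kcnq1ot1 on the other side was at -0.18 ± 0.10. On the flanks of the Cdkn2a and Cdkn2b pair, Mtap was at -0.11 ± 0.14 and Dmrta1 at 0.61 ± 0.21. Next to Cdkn2c, 9630013D21Rik was at 0.88 ± 0.19 and Faf1 at 0.13 ± 0.15. Next to Cdkn1b, Gpr19 was at 0.58 ± 0.20 and Lockd at -0.07 ± 0.20.

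The targeted gene was lower where the labels say so, since the brighter Stat5b probe read 1991 in the control and 497.7 in the knockdown (25.0% of control). Well above background were 59.5% and 58.6% of probes. The stem cell label was checked against 9 markers, of which 7 were measured, with Nes, Vim and Cd44 bright on both arrays. Itga6 was bright too (49569 and 61262.5 by its brightest probe). Prom1 (97.4 and 70.8), Msi1 (198.5 and 225.1) and Fut4 (113.1 and 118.0) were dim, by the brightest probe of each. Sox2 and Fabp7 were not well above background on either array. Markers of other cell types were at 6 of 9 measured for astrocytes (2 higher by 2-fold or more in the knockdown, median 0.96) and 6 of 9 for the oligodendrocyte lineage (0, median 0.30). They were at 4 of 8 for neurons (0, median 0.04), 7 of 11 for microglia and immune cells (1, median 0.09) and 5 of 8 for endothelial and mural cells (1, median 0.26), and no list had a gene at least 2-fold lower. Among all measured genes 3.67% were at least 2-fold higher and 2.41% lower, with a median of 0.01. The summed signal of all astrocyte probes was 3210.5 in the control and 7296.7 in the knockdown. The astrocyte genes past 2-fold were Aldoc, whose brightest probe read 1830 and 3927, and Atp1b2, at 231.3 and 849.5. The other measured ones were Gja1 (0.98), Aqp4 (0.94, with probes from -0.02 to 1.90), Slc1a2 (0.04) and Aldh1l1 (-0.08). Gfap was above background in the control alone, S100b in the knockdown alone and Slc1a3 in neither culture. Summed likewise, control then knockdown, the oligodendrocyte markers read 3099.7 and 3861.5, the neuronal markers 5942.4 and 6552, the immune markers 8904 and 9459, and the endothelial and mural markers 49517 and 44414.5. The astrocyte median lay between 0.31 (normexp) and 1.53 (brighter probes) over the alternatives. The endothelial and mural median was -0.12 among brighter probes, the immune median -0.03 without the last 64 rows and the neuronal median -0.07 without the filter on dim probes. Of the neuronal markers, Rbfox3, Syt1 and Dcx were not well above background on either array, Stmn2 was above it in the control alone, and Tubb3, Map2, Snap25 and Gad1 were measured on both. Of the immune markers, Aif1, Cx3cr1, P2ry12 and C1qa were not above it, whereas Ptprc, Csf1r, Cd68, C1qb, Fcer1g, Laptm5 and Tmem119 were measured. Ptprc read 3288 and 4831 by 1 of its 7 probes, and the others were not well above background on either array. Tmem119 was the 1 immune marker past 2-fold, at 32.7 and 113.9. Of the endothelial and mural markers, Cldn5, Kdr and Tek were not above it, whereas Pecam1, Cdh5, Rgs5, Acta2 and Pdgfrb were measured, and Pdgfrb was the 1 past 2-fold, at 16.6 and 76.1. The part of these markers in the differences of the 10 genes was not tested.

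**Figure D4:**
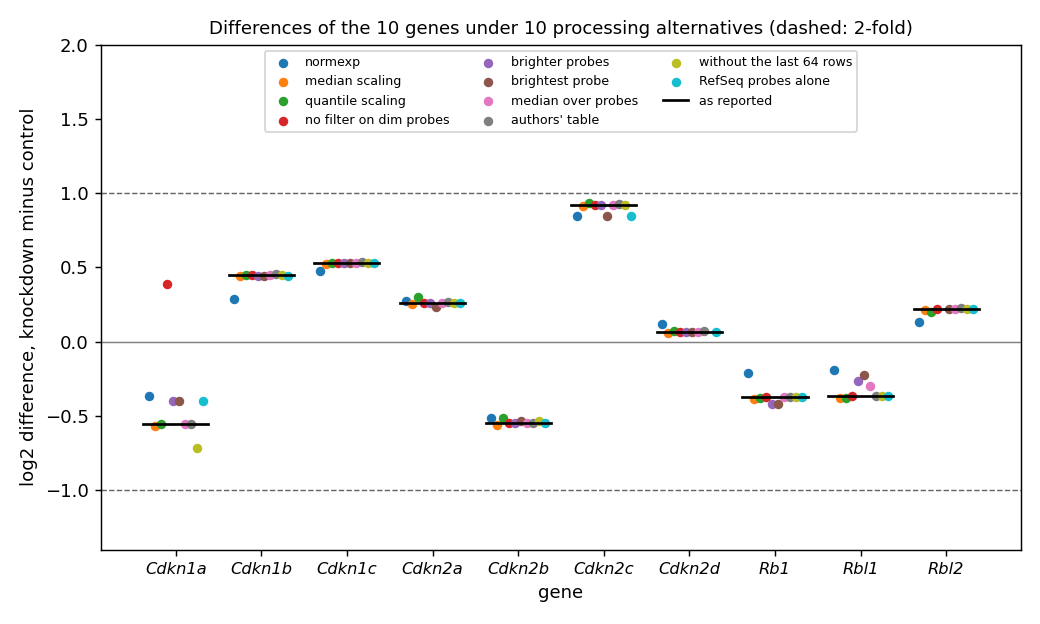
Log2 difference, knockdown minus control (y axis), of each of the 10 genes (x axis) as reported (black bar) and under each of 10 processing alternatives (coloured points), with 2-fold dashed. Cdkn1a without the filter on dim probes, at 0.39, is the only point that lies on the other side of 0 from its bar.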

How the data were processed

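The deposited files hold 1 intensity per spot, read by the authors with Agilent Feature Extraction 12.1.0.3, protocol GE1_1200_Jun14, per the file headers, which name build mm9. Per the labels, total RNA was labelled with Cy3. The authors also deposited log2 values; these equalled log2 of the processed signal minus a constant of 8.94 per array within 0.001 for 100% of single-spot probes (column medians -3.83 and -3.83), with direction as in the scanner files.

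Here, spots flagged as outliers were left out, signals under 1 were set to 1, log2 values of a probe's spots were averaged, and each array's 75th percentile was subtracted. Probes not well above background on both arrays were left out, and the others of a gene were averaged. Members were found by the symbol in the authors' table. Other probes were named by accession or symbol through RefSeq (assembly GRCm38.p6). No test was possible with 1 array a group. The functions for probe values and scaling were tested on simulated data, with changes larger than those of the 10 genes. That simulation did not cover the averaging over a gene's probes. The precision is limited by the number of arrays. Normexp (limma 3.58.1, offset 50) used the median signal, since the deposited columns hold no mean signal. The genes to name were all 10 members, Stat5b, and from each pathway list those at 2-fold or the largest differences up to 4. Members, lists and alternatives were chosen with earlier results of these data known. Neighbouring genes and promoter motifs were added after the values were seen. The result for 1 gene that the naming rule picks is not reported here.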

Additional observations from a re-analysis of the deposited data

How the results depend on the processing

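There were 10 alternatives. No paired analysis was possible because each group had 1 array. The differences of the 10 genes moved by less than the software's error in 88 of 98 cases, and Cdkn1a changed side of 0 once. In each alternative 0 of the 10 genes reached 2-fold. Normexp gave -0.37 for Cdkn1a, 0.29 for Cdkn1b, -0.21 for Rb1 and -0.19 for Rbl1, with 0 member probes at 2-fold, list medians of -0.54 (E2F and DP), 0.13 (p53 targets) and 0.31 (astrocyte), and at least 2-fold higher and lower 191 and 167 genes and 324 and 359 probes. Without the filter on dim probes Cdkn1a was at 0.39, 2 member probes reached 2-fold, 1282 and 1000 genes and 2828 and 2822 probes were counted, and the astrocyte and oligodendrocyte medians were 0.44 and 0.047. Among brighter probes (mean signal of at least 100) Cdkn1a was at -0.40, 580 and 556 probes were counted, and the astrocyte, oligodendrocyte and endothelial medians were 1.53, 0.043 and -0.12. The brightest probe gave -0.40 for Cdkn1a, -0.22 for Rbl1 and 0.51 for the astrocyte median. Without the last 64 rows Cdkn1a was at -0.72 and the p53 target median at 0.057. RefSeq probes alone gave -0.40 for Cdkn1a, 0 member probes at 2-fold and -0.59 for E2F and DP. Median scaling left 0 member probes at 2-fold. Cdkn2d had no value without the last 64 rows, and Rbl2 none among brighter probes. The cause of these shifts was not tested. The Cdkn1a probes differ from each other, and with normexp its probe A_55_P1976204 was at -0.33 in place of -0.72. Signal near background limits the dim probes of Cdkn1a, Cdkn1b, Rb1, Rbl1 and Rbl2.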
